A study of Homo sapiens with 12 samples.

Results

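The 10 genes described here are non-coding and carry small nucleolar RNAs (snoRNAs) in their introns, and their RNA was followed through a pulldown of a TNIP2 fragment: GAS5, SNHG1, SNHG3, SNHG5, SNHG8, SNHG12, SNHG17, ZFAS1, DANCR and EPB41L4A-AS1. They were chosen by name, and rows with these symbols were present for 10 of 10 genes among the 25369 genes in the tables. Human HEK293T cells, a transfectable line from embryonic kidney (the culture notes say HEK293), were transfected to express residues 196 to 346 of TNIP2 joined to the Halo tag (TNIP2), or the Halo tag with nothing attached (Control). RNA came from material purified through the tag (Pulldown, 90 µl) or from whole cell extract (Input, 100 µl), in 4 groups of 3 libraries: TNIP2 Pulldown, TNIP2 Input, Control Pulldown and Control Input. Whether the replicates were separate transfections is not stated, and the p-values therefore describe the spread among libraries, which may be technical. The TNIP2 protein here is an overexpressed fragment and not the endogenous whole protein, and ribosomal RNA had been removed from all 12 libraries.

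A snoRNA host gene is transcribed as a long RNA whose introns hold snoRNAs. After splicing, the intron is trimmed to the snoRNA, which guides 2′-O-methylation (box C/D, named SNORD) or pseudouridylation (box H/ACA, named SNORA) of ribosomal RNA. The joined exons leave as a separate RNA with little or no coding capacity, and several of these spliced RNAs are known to begin with a pyrimidine tract and to be removed by nonsense-mediated decay, a translation-coupled pathway. TNIP2, also called ABIN-2, is a ubiquitin-binding protein known as a regulator of NF-κB signalling.

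The first bases of the 8 genes that differed between TNIP2 Pulldown and TNIP2 Input are shown because a start at C followed by pyrimidines is the feature that hosts are known to share with ribosomal protein genes. Each window runs from 40 bases before to 30 bases from the annotated start, 5′ to 3′ on the gene's strand, from the RefSeq promoter table of build GRCh38.p14. Capitals mark C followed by 4 or more C or T within 5 bases of the start, and TATAA beginning 40 to 20 bases before it.
SNHG1: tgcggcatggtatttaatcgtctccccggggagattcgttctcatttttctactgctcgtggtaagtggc
SNHG8: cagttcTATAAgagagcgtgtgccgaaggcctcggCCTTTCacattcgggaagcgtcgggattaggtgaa
GAS5: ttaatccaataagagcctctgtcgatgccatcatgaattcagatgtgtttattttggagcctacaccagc
ZFAS1: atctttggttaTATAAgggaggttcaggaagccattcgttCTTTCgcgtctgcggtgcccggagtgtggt
SNHG12: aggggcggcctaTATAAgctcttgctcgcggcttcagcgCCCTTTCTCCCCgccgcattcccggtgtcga
SNHG17: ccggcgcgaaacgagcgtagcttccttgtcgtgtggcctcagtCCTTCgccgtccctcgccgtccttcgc
SNHG3: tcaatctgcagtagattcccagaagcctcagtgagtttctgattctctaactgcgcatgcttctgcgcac
DANCR: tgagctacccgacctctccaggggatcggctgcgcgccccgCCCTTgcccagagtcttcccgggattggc

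The windows lie at chr11:62855856-62855925 (minus strand) for SNHG1, chr4:118278722-118278791 (plus) for SNHG8, chr1:173869016-173869085 (minus) for GAS5 and chr20:49278602-49278671 (plus) for ZFAS1. Those of the other four lie at chr1:28581844-28581913 (minus) for SNHG12, chr20:38435299-38435368 (minus) for SNHG17, chr1:28505903-28505972 (plus) for SNHG3 and chr4:52712354-52712423 (plus) for DANCR. Read on the sense strand alone, the C and pyrimidine run lay within 5 bases of the start in 6 of the 10 genes (SNHG5, SNHG8, SNHG12, SNHG17, ZFAS1 and DANCR), against 21.1% of 27305 promoters in the table. Other hosts had it about as often, at 55.3% of 38 protein-coding hosts and 55.6% of 9 other non-coding hosts, so it is not particular to the 10. The start base itself was a C followed by 4 or more pyrimidines in 3 of 10 (SNHG5, ZFAS1, and SNHG12, where the run of 12 bases began 1 base earlier), against 4.04% of promoters. The shares were 42.1% of the protein-coding hosts and 33.3% of the other non-coding hosts. TATAA stood at that distance on the sense strand in 4 of 10 (SNHG5, SNHG8, SNHG12 and ZFAS1), against 4.20%, and on the other strand in 1 of 10, against 1.70%. On the sense strand it stood in 10.5% of the protein-coding hosts and 22.2% of the other non-coding hosts. The 2 motifs do not overlap in any window printed, and the table gives 1 start per gene, so other starts were not examined. The run was present both in genes that were higher and in DANCR, which was lower, and no match says only that these letters are absent from the window. A match is a description of the reference sequence and says nothing about a factor.

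The reads recovered from the steps of the FPKM values numbered 10256772 to 29436518 in TNIP2 Pulldown, 8832765 to 16740834 in TNIP2 Input, 3584446 to 6391813 in Control Pulldown and 13721629 to 20624991 in Control Input. The fewest reads behind any value of a member were 73, for SNHG17 in Control Pulldown 1. TNIP2 itself, which the transfected fragment shares sequence with, had 51905, 69806 and 193013 normalized counts in TNIP2 Pulldown and 16750, 13318 and 46568 in TNIP2 Input, against 1472, 309 and 391 in Control Pulldown and 278, 304 and 272 in Control Input. Both TNIP2 libraries numbered 3 stood apart from the other 10 on the second principal component (11.1% of variance), at -47.8 and -54.7 against -2.84 to 25.7. Of the 7 marker genes listed for HEK cells, all were present, with summed FPKM of 346 to 459, 242 to 275, 227 to 283 and 259 to 278 in TNIP2 Pulldown, TNIP2 Input, Control Pulldown and Control Input. The lists for blood cells, fibroblasts with endothelium, and hepatocytes (8, 8 and 4 genes) reached at most 6.33 summed FPKM per list, and CD3E and HBB were at 0 in every library. The higher HEK sum in TNIP2 Pulldown lay mainly in NEFL (105 FPKM on average, against 18.1 in TNIP2 Input) and VIM (223 FPKM, against 164), while NEFM, KRT8, KRT18 and CDH2 had lower means than in TNIP2 Input; its part in the results was not tested.

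In extracts of cells with the tag alone, GAS5 was the most abundant of the 10 per length, at 873 ± 69.3 FPKM (SD, n = 3). SNHG1 (225 ± 7.79 FPKM) and SNHG5 (219 ± 38.3) followed and did not differ beyond their spread. SNHG8 (123 ± 7.03 FPKM) and ZFAS1 (120 ± 11.8) were likewise level with each other. SNHG3 (93.6 ± 2.36 FPKM), DANCR (93.3 ± 2.48) and SNHG12 (86.0 ± 4.21) lay close together, and EPB41L4A-AS1 (42.6 ± 2.14) and SNHG17 (12.5 ± 0.963) were lowest. Together the 10 genes summed to 3272, 3676 and 2934 FPKM in TNIP2 Pulldown and 1668, 1567 and 2149 FPKM in TNIP2 Input. The sums were 1705, 1817 and 1791 FPKM in Control Pulldown and 1937, 1873 and 1855 FPKM in Control Input, so the 3 TNIP2 Pulldown libraries held the highest sums.

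The question of which host RNAs came down with the TNIP2 fragment was put to 2 comparisons, with the extract of the same cells and with the pulldown of the tag alone. Against TNIP2 Input, 6 of the 10 genes were higher (SNHG1, SNHG8, SNHG17, SNHG12, GAS5 and ZFAS1), 2 were lower (SNHG3 and DANCR), and SNHG5 and EPB41L4A-AS1 did not pass the test (limma, Benjamini-Hochberg adjusted p under 0.05 over 14627 genes). Of all genes tested, 29.8% were higher and 28.3% lower (58.1% in either direction), so the pulldown differed from its extract over more than the hosts. The members' median log2 fold change was 0.89, beside 0.01 over all genes tested. Against Control Pulldown, 6 members were higher and 2 lower, and they were the genes just named, beside 30.6% and 28.7% of all genes (59.4% in either direction). Both comparisons use the same 3 TNIP2 Pulldown libraries, so neither is a repeat of the other. Without both TNIP2 libraries numbered 3, 8 members were called in each. Fold changes below are from log2(normalized count + 1), and the normalized counts are scaled between libraries: they give a gene's place among the RNAs recovered, not the amount of RNA recovered.

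**Figure D1:**
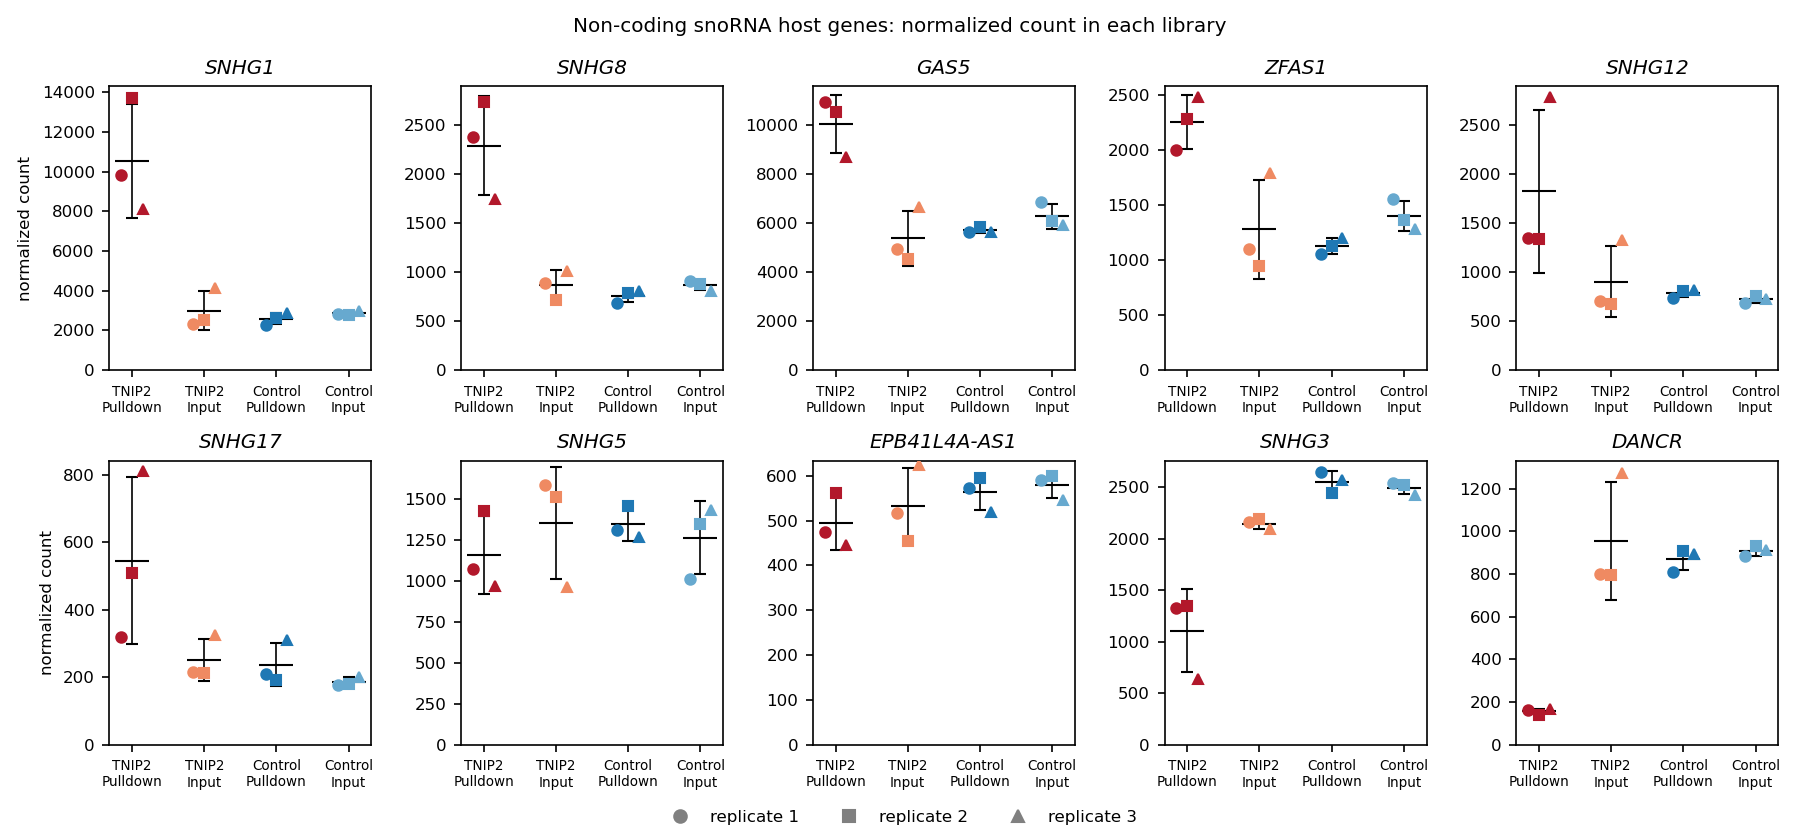
Normalized count (linear axis from 0, a scale for each gene) of the 10 host genes in each library of TNIP2 Pulldown, TNIP2 Input, Control Pulldown and Control Input, with the group mean and SD (n = 3) as black bars and replicate numbers as symbols. SNHG1 lies at 8093 or above in TNIP2 Pulldown and at 4120 or below in all other libraries, DANCR lies at 165 or below in TNIP2 Pulldown and at 795 or above elsewhere, and the triangle of TNIP2 Input stands above its group for SNHG1, GAS5, ZFAS1, SNHG12, SNHG17 and DANCR.

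SNHG1, the host first known for SNORD22, had 9810, 13727 and 8093 normalized counts in TNIP2 Pulldown and 2336, 2511 and 4120 in TNIP2 Input, against 2288, 2624 and 2854 in Control Pulldown and 2846, 2769 and 2965 in Control Input. No TNIP2 Pulldown library overlapped any other library. SNHG1 was 3.56-fold higher in TNIP2 Pulldown than in TNIP2 Input (log2 fold change 1.83 ± 0.22 SE, adjusted p = 5.87e-06) and 3.99-fold higher than in Control Pulldown (2.00 ± 0.22, adjusted p = 2.42e-06). Taken by replicate number, the ratio of pulldown to input was 4.20, 5.47 and 1.96, lowest in the third pair, where the input level was highest.

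SNHG8, which carries SNORA24, had 2387, 2745 and 1751 normalized counts in TNIP2 Pulldown and 889, 716 and 1010 in TNIP2 Input, against 684, 788 and 811 in Control Pulldown and 908, 878 and 811 in Control Input. Again the 3 TNIP2 Pulldown libraries lay above the other 9. The difference was 2.61-fold from TNIP2 Input (log2 fold change 1.38 ± 0.18, adjusted p = 1.27e-05) and 2.97-fold from Control Pulldown (1.57 ± 0.18, adjusted p = 3.62e-06).

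GAS5, known as a transcript that accumulates in growth-arrested cells and as a decoy for the glucocorticoid receptor, had 10938, 10530 and 8695 normalized counts in TNIP2 Pulldown and 4953, 4551 and 6667 in TNIP2 Input, against 5636, 5837 and 5639 in Control Pulldown and 6847, 6066 and 5919 in Control Input. All TNIP2 Pulldown libraries were above all others, with the narrowest gap between TNIP2 Pulldown 3 and Control Input 1. GAS5 was 1.88-fold higher than in TNIP2 Input (log2 fold change 0.91 ± 0.16, adjusted p = 0.000211) and 1.75-fold higher than in Control Pulldown (0.81 ± 0.16, adjusted p = 0.00054). These calls depended on the scaling: under quantile normalization the log2 fold changes were 0.22 (adjusted p = 0.166) and 0.08 (adjusted p = 0.624).

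ZFAS1, named as the antisense RNA at the 5′ end of ZNFX1, had 1998, 2278 and 2484 normalized counts in TNIP2 Pulldown and 1102, 945 and 1788 in TNIP2 Input, against 1057, 1130 and 1197 in Control Pulldown and 1553, 1363 and 1285 in Control Input. The groups did not overlap, and TNIP2 Input 3 was the nearest to the pulldown. ZFAS1 was 1.82-fold higher than in TNIP2 Input (log2 fold change 0.87 ± 0.20, adjusted p = 0.00175) and 1.99-fold higher than in Control Pulldown (0.99 ± 0.20, adjusted p = 0.000583). The call against TNIP2 Input ended under quantile normalization (0.45, adjusted p = 0.0635). It also ended when libraries were centred on the ribosomal protein genes (0.40, adjusted p = 0.216), a scaling that shifted the median of all genes to -0.47 in that comparison and to -0.30 against Control Pulldown.

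SNHG12, the host of SNORD99 and 3 box H/ACA snoRNAs, had 1348, 1335 and 2785 normalized counts in TNIP2 Pulldown and 709, 674 and 1323 in TNIP2 Input, against 736, 801 and 816 in Control Pulldown and 686, 757 and 727 in Control Input. Both libraries numbered 3 held far more than their group's other libraries, and the ratio of pulldown to input by replicate number was nearly constant at 1.90, 1.98 and 2.11. SNHG12 was 1.99-fold higher than in TNIP2 Input (log2 fold change 0.99 ± 0.28, adjusted p = 0.00627) and 2.18-fold higher than in Control Pulldown (1.13 ± 0.28, adjusted p = 0.00264). Without TNIP2 Pulldown 3 the first of these was 0.64 (adjusted p = 0.0243), and without both libraries numbered 3 it was 0.96 (adjusted p = 7.06e-06). Centring on ribosomal protein genes left 0.52 (adjusted p = 0.247) against TNIP2 Input and 0.79 (adjusted p = 0.0867) against Control Pulldown.

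SNHG17, the least abundant member and the host of the SNORA71 family, had 318, 508 and 810 normalized counts in TNIP2 Pulldown and 215, 214 and 324 in TNIP2 Input, against 209, 192 and 311 in Control Pulldown and 177, 179 and 202 in Control Input. TNIP2 Pulldown 1 lay below TNIP2 Input 3, so these groups overlapped, while all TNIP2 Pulldown libraries lay above Control Pulldown. The log2 fold change was 1.04 ± 0.29 over TNIP2 Input (2.06-fold, adjusted p = 0.00639) and 1.13 ± 0.29 over Control Pulldown (2.18-fold, adjusted p = 0.00369). Centring on ribosomal protein genes left 0.57 (adjusted p = 0.216) and 0.79 (adjusted p = 0.0924).

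DANCR, named for its role in holding back differentiation, changed the most of the 10. It had 161, 141 and 165 normalized counts in TNIP2 Pulldown and 798, 795 and 1274 in TNIP2 Input, against 810, 907 and 894 in Control Pulldown and 882, 930 and 910 in Control Input. The 3 TNIP2 Pulldown libraries agreed closely and lay far below the other 9. DANCR was 5.97-fold lower than in TNIP2 Input (log2 fold change -2.58 ± 0.18, adjusted p = 4.65e-08) and 5.57-fold lower than in Control Pulldown (-2.48 ± 0.18, adjusted p = 5.29e-08), and its ratio of pulldown to input by replicate number was 0.202, 0.177 and 0.130.

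SNHG3, host of the SNORA73 snoRNAs (the U17 RNAs), had 1325, 1351 and 641 normalized counts in TNIP2 Pulldown and 2166, 2189 and 2092 in TNIP2 Input, against 2649, 2448 and 2574 in Control Pulldown and 2539, 2527 and 2425 in Control Input. TNIP2 Pulldown 3 held less than the other two libraries of its group, and all 3 lay below every other library. SNHG3 was 2.05-fold lower than in TNIP2 Input (log2 fold change -1.04 ± 0.22, adjusted p = 0.000955) and 2.44-fold lower than in Control Pulldown (-1.29 ± 0.22, adjusted p = 0.000152). Without TNIP2 Pulldown 3, the fall from TNIP2 Input was smaller (-0.68, adjusted p = 0.000127).

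SNHG5, the host of SNORD50A and SNORD50B, had 1075, 1430 and 971 normalized counts in TNIP2 Pulldown and 1586, 1516 and 963 in TNIP2 Input, against 1312, 1460 and 1268 in Control Pulldown and 1015, 1348 and 1433 in Control Input. EPB41L4A-AS1, transcribed antisense to EPB41L4A, had 475, 562 and 445 normalized counts in TNIP2 Pulldown and 516, 455 and 624 in TNIP2 Input, against 573, 596 and 520 in Control Pulldown and 590, 600 and 546 in Control Input. The groups overlapped for both genes. For TNIP2 Pulldown over TNIP2 Input the log2 fold change of SNHG5 was -0.21 (95% interval -0.66 to 0.24, adjusted p = 0.404) and that of EPB41L4A-AS1 was -0.10 (-0.44 to 0.24, adjusted p = 0.604), so a doubling like that of SNHG12 lies outside both intervals. Over Control Pulldown the values were -0.23 (-0.68 to 0.21) and -0.19 (-0.53 to 0.14). Centring on ribosomal protein genes moved both to calls as lower, at -0.68 and -0.57 against TNIP2 Input, which are the values above plus the shift that this centring gave every gene.

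**Figure D2:**
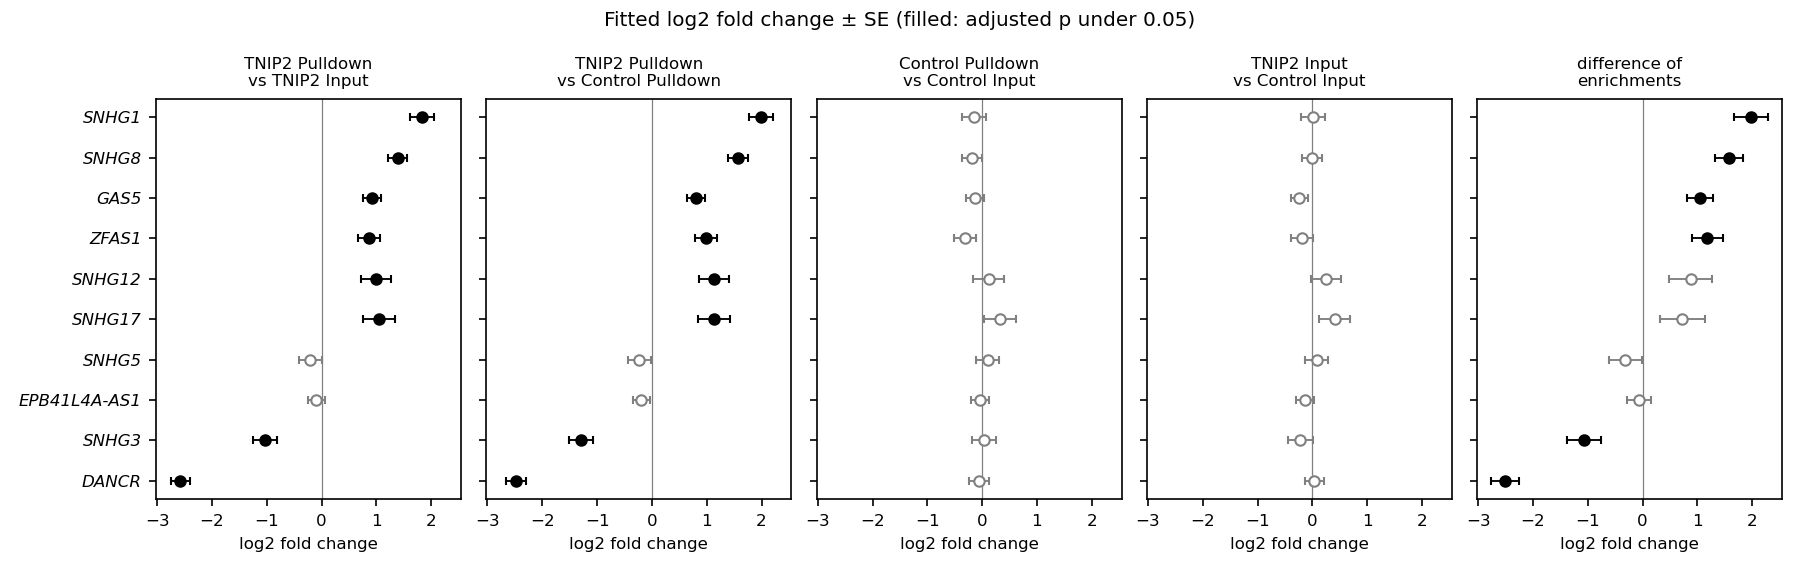
Fitted log2 fold change (x axis) of each host gene (rows) with its SE in the 5 comparisons; filled points have an adjusted p under 0.05. In the 2 panels with TNIP2 Pulldown over another group, 6 genes lie right of 0 and SNHG3 and DANCR left of it, while no point is filled for Control Pulldown over Control Input or for TNIP2 Input over Control Input.

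The tag alone and the expression of the fragment were then examined without TNIP2 Pulldown. Between Control Pulldown and Control Input, 0 of the 10 hosts were called in limma, beside 0% of all genes higher and 0.137% lower (342 of 14627 genes had an unadjusted p under 0.05). The hosts' log2 fold changes there ran from -0.31 for ZFAS1 to 0.32 for SNHG17, with a median of -0.05. Between TNIP2 Input and Control Input, 0 of the 10 were called, beside 0.00684% of all genes higher, which is TNIP2 alone, and 0% lower (104 genes had an unadjusted p under 0.05; a fit with library weights, which did not converge, called 7 members, along with 1866 genes higher and 1755 lower over all 14627). Log2 fold changes ran from -0.24 for GAS5 to 0.40 for SNHG17. No member had an unadjusted p under 0.05 in either comparison. In bulk libraries, a different level per cell and a different share of cells holding the RNA cannot be told apart.

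The enrichment with the fragment, minus that with the tag alone, was tested as an interaction. It was above 0 for 4 hosts and below 0 for 2, beside 22.6% and 20.2% of all genes (42.8% in either direction). SNHG1 (log2 difference 1.98 ± 0.31, adjusted p = 0.000169), SNHG8 (1.57 ± 0.25, adjusted p = 0.00022), ZFAS1 (1.18 ± 0.28, adjusted p = 0.00383) and GAS5 (1.05 ± 0.23, adjusted p = 0.00201) gained more with the fragment. DANCR (-2.52 ± 0.25, adjusted p = 5.35e-06) and SNHG3 (-1.07 ± 0.31, adjusted p = 0.0124) lost more. For SNHG12 (0.88 ± 0.39, adjusted p = 0.0826) and SNHG17 (0.72 ± 0.41, adjusted p = 0.17) the difference was not called. The value for SNHG12 moved with the libraries numbered 3: without TNIP2 Pulldown 3 it was 0.53 (adjusted p = 0.166), without TNIP2 Input 3 it was 1.19 (adjusted p = 0.0104), without both it was 0.84 (adjusted p = 0.00033), and with the replicate number as a block it was 0.88 (adjusted p = 0.0291). The value for SNHG17 was 1.06 without TNIP2 Pulldown 1 (adjusted p = 0.031), 0.39 without TNIP2 Pulldown 3 (adjusted p = 0.373) and 0.58 without both libraries numbered 3 (adjusted p = 0.12). Library weights, which did not converge, gave calls for both genes (0.91 for SNHG12 and 0.56 for SNHG17). GAS5 lost its call under quantile normalization (0.27, adjusted p = 0.262) and with libraries centred on the ribosomal protein genes (0.47, adjusted p = 0.141), and ZFAS1 under that centring (0.60, adjusted p = 0.214).

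The make-up of the host RNA within a library does not depend on the scaling between libraries. SNHG1 made up 23.6%, 29.4% and 21.7% of the members' summed FPKM in TNIP2 Pulldown, against 11.0%, 12.6% and 15.1% in TNIP2 Input. DANCR made up 0.507%, 0.395% and 0.58% in TNIP2 Pulldown, against 4.92%, 5.22% and 6.09% in TNIP2 Input. EPB41L4A-AS1, not called by normalized count, held 1.07%, 1.13% and 1.12% in TNIP2 Pulldown, against 2.28%, 2.14% and 2.14% in TNIP2 Input. SNHG5 held 5.69%, 6.75% and 5.73% in TNIP2 Pulldown, against 16.5%, 16.8% and 7.77% in TNIP2 Input. Shares are tied to each other. As deposited, the sum of the 10 averaged 3294 FPKM in TNIP2 Pulldown and 1795 FPKM in TNIP2 Input. EPB41L4A-AS1 averaged 36.4 FPKM in TNIP2 Pulldown and 39.1 FPKM in TNIP2 Input, so on that scaling its lower share goes with a higher sum. These levels do depend on the scaling: centred on the ribosomal protein genes, EPB41L4A-AS1 was itself called lower (log2 fold change -0.57, adjusted p = 0.0218). GAS5 kept the highest share throughout, at 39.8% to 46.5% in TNIP2 Pulldown and 40.4% to 43.1% in TNIP2 Input, and its shares overlapped.

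**Figure D3:**
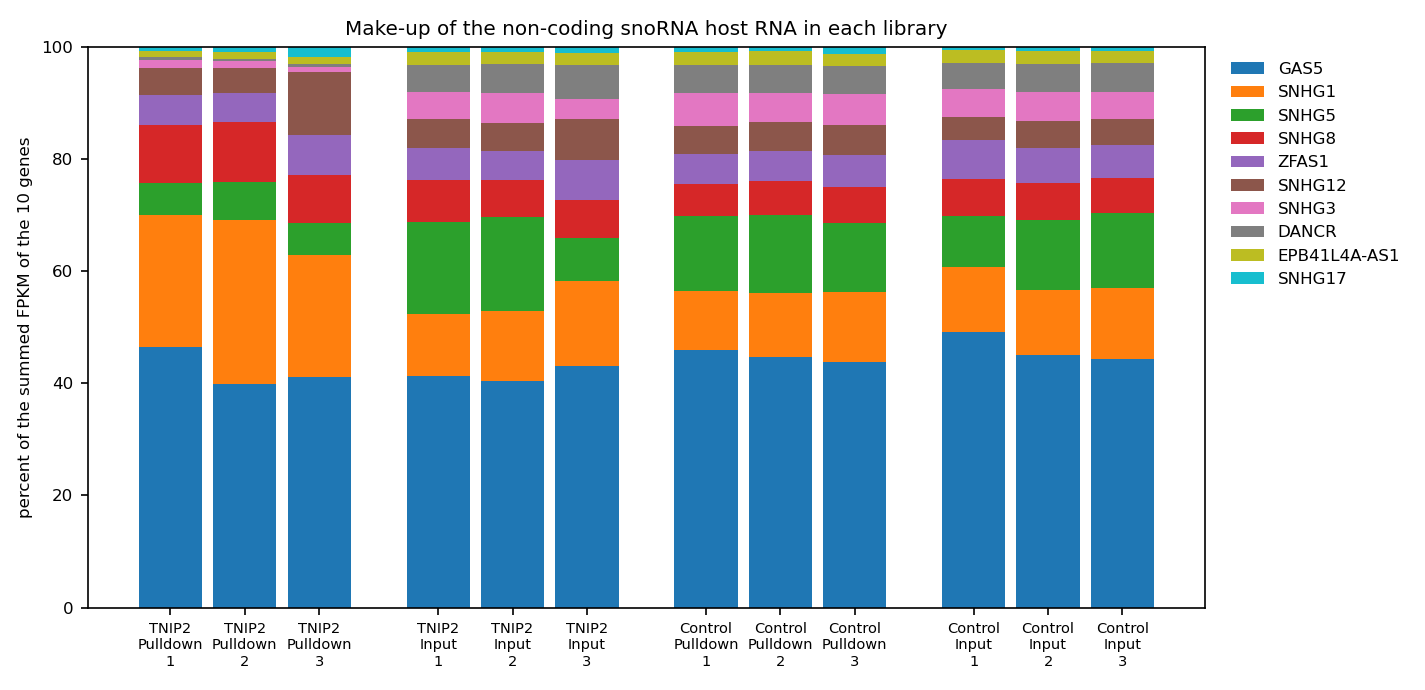
Percent of the summed FPKM of the 10 host genes held by each gene in every library, as stacked bars from 0 to 100, with TNIP2 Pulldown at the left and Control Input at the right. The SNHG1 segment spans 21.7% to 29.4% in TNIP2 Pulldown and 10.6% to 15.1% in the other 9 libraries, and the DANCR segment shrinks to at most 0.58% in TNIP2 Pulldown.

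The snoRNAs inside the hosts were measured as rows of their own for 34 of the 36 listed, all of which were tested (SNORA73A and SNORA73B of SNHG3 had no row). Against TNIP2 Input, 16 were higher and 5 lower, with a median log2 fold change of 0.80, and against Control Pulldown 19 were higher and 6 lower, beside 58.1% and 59.4% of all genes called in either direction. SNORD75 of GAS5, higher against Control Pulldown (log2 fold change 2.95), met the minimum count for testing through TNIP2 Pulldown, where it was high. Its normalized counts there were 16, 30 and 20, while Control Pulldown had only 3, 0 and 5. Outside TNIP2 Pulldown, only TNIP2 Input 3 reached that minimum. How reads of an unspliced host or a free intron were counted is unknown here, so a snoRNA row cannot be told apart from intron-holding host RNA, and many of these rows are low. Differences between host and snoRNA were large for some genes.

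All 8 snoRNAs of SNHG1, each a box C/D RNA, were higher than in TNIP2 Input, with log2 fold changes of 2.09 to 3.03 (median 2.48) beside 1.83 for the host. SNORD29 had 403, 879 and 250 normalized counts in TNIP2 Pulldown, against 45, 65 and 71 in TNIP2 Input. SNORD30 had 152, 346 and 93 in TNIP2 Pulldown, against 13, 25 and 24 in TNIP2 Input. Of the 10 box C/D snoRNAs of GAS5, 8 were higher, with a median of 1.49 over the 10 beside 0.91 for the host; SNORD74 (0.51, adjusted p = 0.137) and SNORD75 (1.59, adjusted p = 0.054) were not called. SNORD76 had 315, 635 and 219 normalized counts in TNIP2 Pulldown, against 74, 105 and 85 in TNIP2 Input. The snoRNA rows of these hosts moved in the direction of the spliced gene.

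SNHG17 went the other way from its snoRNAs. SNORA71A had 5, 7 and 10 normalized counts in TNIP2 Pulldown and 56, 78 and 85 in TNIP2 Input, against 57, 83 and 73 in Control Pulldown and 89, 65 and 78 in Control Input (log2 fold change from TNIP2 Input -3.17, adjusted p = 3.58e-07). SNORA71C had 2, 2 and 1 in TNIP2 Pulldown, against 17, 18 and 19 in TNIP2 Input, and was also called lower, as was SNORA71D, at 0, 0 and 2 against 10, 10 and 12. SNORA71D passed the filter (a normalized count of 10 in 3 libraries) through TNIP2 Input, the group it was called against. Elsewhere only Control Pulldown 2 and Control Input 2 reached 10, and its fewest reads in a library were 0. SNORA71B was not called (adjusted p = 0.0753). Against Control Pulldown, SNORA71A, SNORA71B and SNORA71C were lower and SNORA71D was not called (log2 fold change -1.29, adjusted p = 0.155), with 0, 10 and 3 normalized counts there. SNORA71B passed the filter mainly through the group it was called against, where Control Pulldown 1 held 11 and Control Pulldown 2 held 13. The only other library to reach 10 was TNIP2 Input 2. Its TNIP2 Pulldown libraries held 0, 5 and 6, and the fewest reads behind SNORA71B in a library were 0. The SNORA71 copies resemble each other, so reads could be split among their rows. Together the 4 rows came to 2.20%, 2.76% and 2.35% of the SNHG17 count in TNIP2 Pulldown and 41.9%, 54.2% and 38.0% in TNIP2 Input, against 35.4%, 65.1% and 30.2% in Control Pulldown and 73.4%, 55.9% and 54.0% in Control Input. This ratio is taken within a library and needs no scaling between libraries.

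The ratio of snoRNA rows to host was also lower for ZFAS1, at 1.05%, 1.10% and 0.523% in TNIP2 Pulldown, against 4.81%, 5.29% and 3.30% in TNIP2 Input. SNORD12B of ZFAS1 was called lower (log2 fold change -1.69, adjusted p = 0.000607), with 8, 12 and 5 normalized counts in TNIP2 Pulldown, against 25, 28 and 30 in TNIP2 Input. The fall was smaller against Control Pulldown (-0.92, adjusted p = 0.0299), which had 14, 14 and 20. Its enrichment with the fragment minus that with the tag alone was not called (-1.05, adjusted p = 0.0913). SNHG12 had ratios of 3.71%, 5.39% and 2.80% in TNIP2 Pulldown, against 12.3%, 12.3% and 8.09% in TNIP2 Input, although none of its 4 snoRNAs was called (-0.56 to -0.38). SNHG8 had 3.44%, 3.21% and 4.05% in TNIP2 Pulldown, against 7.99%, 8.66% and 7.43% in TNIP2 Input, with SNORA24 at 0.21 (adjusted p = 0.474). In Control Pulldown the SNHG8 ratios were 4.68%, 6.09% and 3.45% and overlapped those of TNIP2 Pulldown, and SNORA24 was higher with its host against Control Pulldown (log2 fold change 1.17, adjusted p = 0.000684). ZFAS1 had 1.61%, 3.45% and 2.76% and SNHG12 6.93%, 11.9% and 12.7% in Control Pulldown, above TNIP2 Pulldown in each library.

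In the opposite direction, the ratio was 13.5%, 23.6% and 15.3% in TNIP2 Pulldown, against 8.86%, 13.0% and 10.3% in TNIP2 Input, for GAS5. For SNHG1 it was 16.4%, 24.7% and 13.9% in TNIP2 Pulldown, against 10.8%, 13.8% and 8.33% in TNIP2 Input. DANCR and its SNORA26 (6, 4 and 6 normalized counts in TNIP2 Pulldown, against 21, 20 and 29 in TNIP2 Input) were both lower, with ratios of 3.73%, 2.84% and 3.64% in TNIP2 Pulldown, against 2.63%, 2.52% and 2.28% in TNIP2 Input. The DANCR ratios in Control Pulldown (1.73%, 1.76% and 3.91%) and Control Input (2.95%, 3.12% and 2.75%) overlapped those of TNIP2 Pulldown. Control Pulldown had 7.35%, 7.86% and 10.4% for GAS5 and 8.78%, 9.91% and 13.8% for SNHG1, below TNIP2 Pulldown in each library. In each of these 7 hosts the ratios of TNIP2 Pulldown and TNIP2 Input did not overlap (exact two-sided permutation p = 0.1, the smallest that 3 against 3 allows, over 9 hosts tested, so no test here can reach 0.05). The nearest libraries were close for SNHG1 (13.9% against 13.8%) and GAS5 (13.5% against 13.0%). Of all genes tested, 58.1% were called between these groups, and how often ratios of other rows would separate was not tested. SNHG5 (exact p = 0.6) and EPB41L4A-AS1 (exact p = 0.8) had ratios that overlapped between TNIP2 Pulldown and TNIP2 Input. Those of SNHG5 in TNIP2 Pulldown (3.26%, 3.57% and 2.16%) lay above Control Pulldown (1.37%, 1.03% and 0.237%). SNORD50B of SNHG5 was called higher against Control Pulldown (log2 fold change 1.72, adjusted p = 0.0029), where it had only 9, 10 and 3 normalized counts, while SNHG5 was not called.

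**Figure D4:**
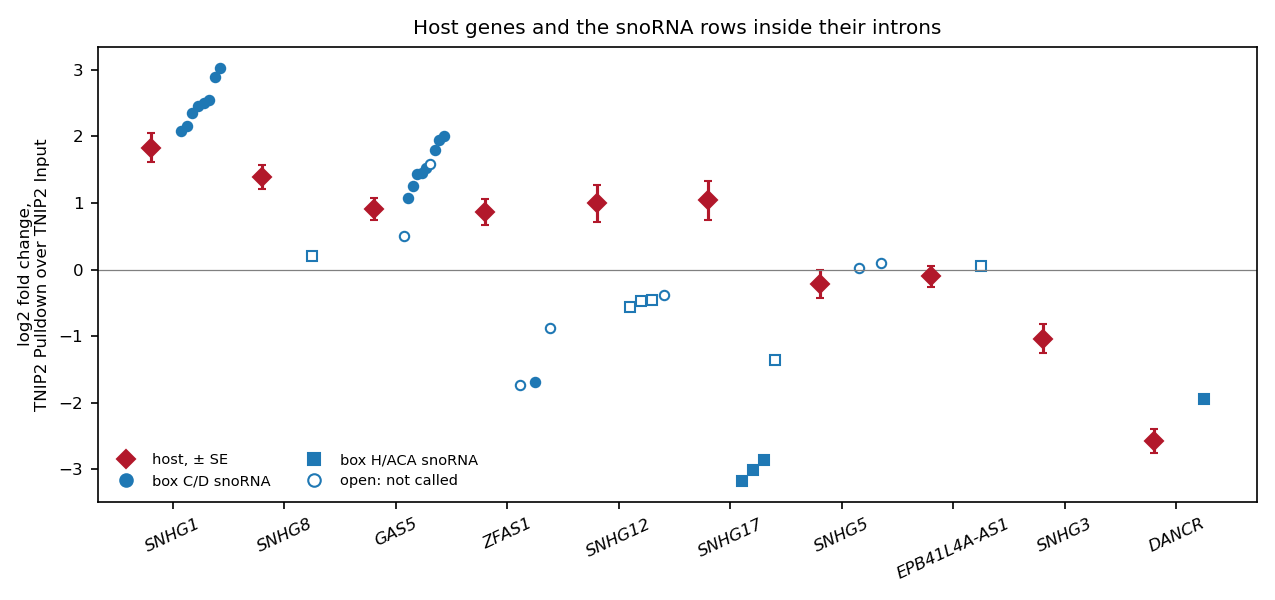
Log2 fold change of TNIP2 Pulldown over TNIP2 Input (y axis) for each host gene (red diamonds, ± SE) and for the snoRNA rows inside its introns (blue, circles for box C/D and squares for box H/ACA, open where not called). The snoRNAs of SNHG1 lie at 2.09 or above, above their host, while those of SNHG17 lie between -3.17 and -1.36 under a host at 1.04.

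Genes that share a locus with a host were read beside it, because reads on overlapping genes can be split and the strand setting of the counting is unknown here. The overlaps are those of RefSeq GRCh38.p14. RCC1, a nuclear exchange factor for Ran, overlaps SNHG3 on the same strand and was lower with it in TNIP2 Pulldown (log2 fold change -1.49 from TNIP2 Input, adjusted p = 2.43e-06), so the value of SNHG3 is uncertain to that extent. On the opposite strand of GAS5, ZBTB37 fell by 1.27 on the log2 scale (adjusted p = 0.000752) where GAS5 rose, and TRNAU1AP fell by 0.92 (adjusted p = 0.000375) opposite SNHG12. GAS5-AS1, which also overlaps GAS5, was lower than in TNIP2 Input (log2 fold change -2.06, adjusted p = 0.027). Against Control Pulldown it was not called (-1.67, adjusted p = 0.0655). EPB41L4A rose by 1.65 (adjusted p = 8.6e-05) while its antisense partner EPB41L4A-AS1 was not called. ZNFX1 rose by 2.13 (adjusted p = 2.9e-07) beside ZFAS1. SLC3A2 beside SNHG1 (-0.83, adjusted p = 0.0837) and PRSS12 beside SNHG8 (-0.37, adjusted p = 0.308) were not called.

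A list of 17 further non-coding hosts had 13 in the tables and 11 tested. Against TNIP2 Input, 3 were higher (SNHG6, SNHG9 and SNHG10) and 5 lower (SNHG20, LRRC75A-AS1, SNHG4, SNHG16 and C6orf48), with a median log2 fold change of -0.20. SNHG6 had 5319, 5978 and 5778 normalized counts in TNIP2 Pulldown, against 1057, 872 and 1268 in TNIP2 Input. LRRC75A-AS1 had 1386, 1471 and 1212 in TNIP2 Pulldown, against 8819, 8251 and 7568 in TNIP2 Input. Over all genes tested, 29.8% were higher and 28.3% lower, so members on both sides are no feature of the list.

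Of the 47 protein-coding hosts tested, 19 were higher and 8 lower (median 0.39), a share called near the 58.1% of all genes, with RPL12 at 2.14 and RPL30 at -2.49. The split of these hosts, many of them ribosomal protein genes, depended on scaling, with 13 higher and 20 lower under quantile normalization. Among 19 snoRNP proteins and assembly factors, 7 were higher and 5 lower (median 0.27), including the pseudouridine synthase DKC1 (1.89) and its partner NOP10 (1.82) as higher, and ZNHIT6, an assembly factor for box C/D particles (-1.45), as lower. Among 22 factors of nonsense-mediated decay and the exon junction complex, 9 were higher and 6 lower (median -0.03), including UPF1, the helicase of the pathway (1.45), and RBM8A (1.69) as higher and UPF3B (-1.74) as lower. These counts, too, stand beside 58.1% of all genes called in either direction. These lists concern the mRNAs of the factors, not the proteins.

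**Figure D5:**
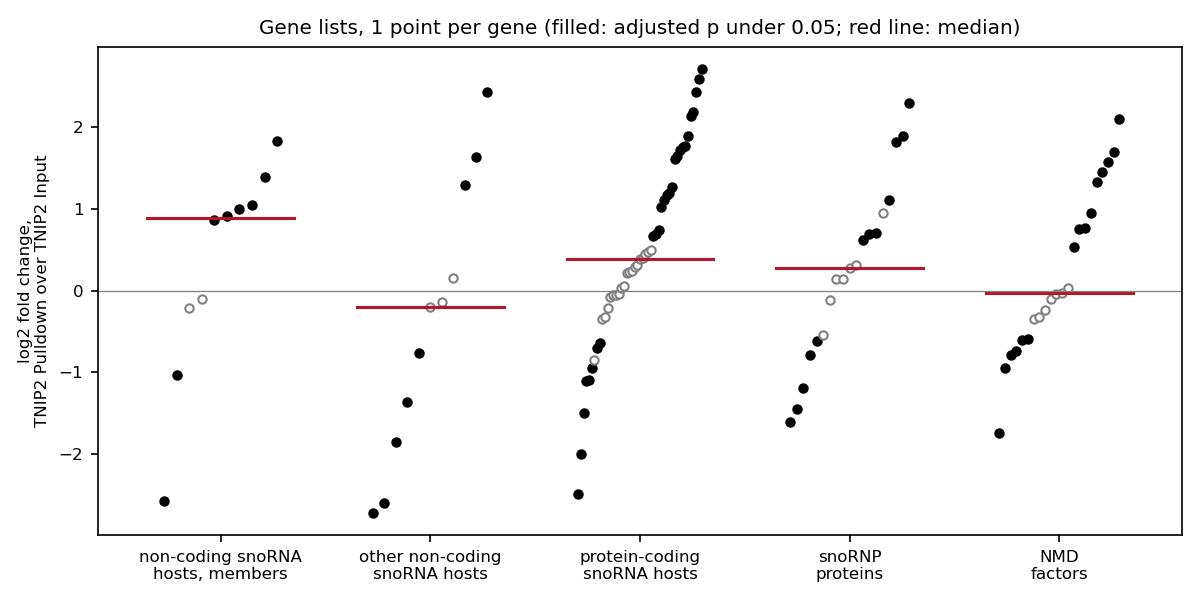
Log2 fold change of TNIP2 Pulldown over TNIP2 Input (y axis) for every tested gene of 5 lists, 1 point per gene, filled where the adjusted p is under 0.05, with the median as a red line. Each list has genes on both sides of 0, and the medians are 0.89 for the members, -0.20 for other non-coding hosts, 0.39 for coding hosts, 0.27 for snoRNP proteins and -0.03 for decay factors.

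Across the 12 libraries the members' log2 levels share the contrast of TNIP2 Pulldown with the other 9 libraries, so the following correlations are descriptions. SNHG1 and SNHG8 were the most alike (Pearson r = 0.98), and SNHG12 and SNHG17, both high in the libraries numbered 3, followed GAS5 less closely (0.73 and 0.66) than they followed each other (0.93). SNHG3 and SNHG12 were opposed (r = -0.93), as were DANCR and SNHG8 (-0.93). Among 10519 other genes with a mean normalized count of at least 100, the closest to DANCR were C6orf62 and RNF115 (both 0.997), to SNHG1 CREBRF (0.996) and ARMCX6 (0.995), to SNHG8 LOC100294145 and TMSB15A (both 0.99), and to SNHG3 EMB and LIN7C (both 0.99). GAS5 was closest to UNC119 and HMMR (both 0.98), SNHG12 to SMAD6 and DENND3 (both 0.99), ZFAS1 to RITA1 and COG2 (both 0.97), and SNHG17 to PER2 (0.97) and PABPC1L (0.96). SNHG5 was closest to LRRFIP1 (0.96) and SPTSSA (0.95), and EPB41L4A-AS1 to CHPT1 and PITPNA-AS1 (both 0.91).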

How the data were processed

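Both deposited tables list gene symbols against the 12 libraries, with normalized counts in the first and FPKM in the second. Per the submitters' processing notes, the authors used hg19, TopHat2 2.0.14 and DESeq2 1.6.3; which program counted reads, on which strand and with what gene models is not given in the sources used here. That normalized count from the authors is treated as a score, since it is a whole number after scaling and not a raw count; 1 read was worth 0.512 to 2.87 of it. Reads were recovered from the steps of the deposited FPKM, of which 95.7% to 100% of low values per library came out whole within 0.1 reads. Column letters (C, I, P) correspond to words in the sample titles; the fourth was taken by elimination to mean the TNIP2 fragment.

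Of 25369 genes (4492 at 0 throughout), 14627 were tested, those reaching a normalized count of 10 in 3 libraries, as log2(normalized count + 1), which understates changes of low genes. limma 3.58.1 in R 4.3.3 fitted all 12 libraries, 1 mean for each group, with a trend and 8 residual degrees of freedom, two-sided, with Benjamini-Hochberg adjustment over all genes tested and calls at 0.05. The fit was tested on simulated data. The members and lists were chosen with earlier results of these data known; all 10 members are named, with up to 4 genes of smallest p per list, tested snoRNAs, overlapping genes and the 2 genes most correlated with each member. RefSeq promoters matched 10 of 10 members. No replicate pair looked like a duplicate. Alternatives were other pseudocounts, filters, scalings, the FPKM table, library weights, a replicate block and leaving out libraries. Same-numbered TNIP2 Pulldown and TNIP2 Input libraries deviated together (correlations 0.37, 0.46 and 0.50), Control libraries less (0.07 to 0.08). Differently numbered TNIP2 libraries ranged from -0.45 to 0.27, the highest for TNIP2 Pulldown 2 with TNIP2 Input 1. Pairing by number is thus clearest for the TNIP2 libraries numbered 3 and less sure for those numbered 1 and 2, as read from the data. The main fit does not use the pairing.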

Additional observations from a re-analysis of the deposited data

Results flagged for a closer look

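The enrichment in the pulldown differed between the TNIP2 fragment and the tag alone for 6 hosts, by the interaction term of the limma fit. The log2 difference was 1.98 for SNHG1 (enrichment 1.83 with the fragment, -0.15 with the tag), 1.57 for SNHG8 (1.38 and -0.19), 1.18 for ZFAS1 (0.87 and -0.31) and 1.05 for GAS5 (0.91 and -0.14). It was -2.52 for DANCR (-2.58 with the fragment, -0.06 with the tag) and -1.07 for SNHG3 (-1.04 and 0.03). Over all genes tested, 42.8% had such a difference, so it is not particular to the hosts.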

How the results depend on the processing

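Against TNIP2 Input, the number of members called was 8, with a range of 6 to 9 over 25 alternatives. SNHG1, SNHG8, SNHG3 and DANCR kept direction and call under each alternative in both comparisons with TNIP2 Pulldown on top and in the interaction. Leaving out single libraries gave 8 calls throughout in both comparisons, and 6 to 7 in the interaction. With the replicate number as a block there were 8 calls against TNIP2 Input (6 higher, 2 lower; also 8 with the block within the TNIP2 libraries) and 7 in the interaction, where SNHG12 was gained; the block changed no other member's call. With libraries centred on the ribosomal protein genes, 3 members were higher and 4 lower against TNIP2 Input, and over all genes 2437 were higher and 6033 lower, where the main result is 4358 higher and 4145 lower. Library weights, whose estimation did not converge, called 7 members between TNIP2 Input and Control Input (1 higher, 6 lower) where the main result is 0, along with 1866 genes higher and 1755 lower over all genes (main 1 and 0), and reversed SNHG1 (-0.25, main 0.02) and DANCR (-0.20, main 0.04); the cause was not tested. Fitting the compared groups alone gives no value for the interaction. Counts of the snoRNA list stayed within 1.5 times the main count. Low snoRNA rows, at times under 10 reads, limit what depth can show, most of all in Control Pulldown.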
